A study of Mus musculus with 3 samples.

Results

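The genes described here are 10 adhesion G protein-coupled receptors of the mouse, Adgrf5, Adgrl1, Adgrl2, Adgrl3, Adgrl4, Adgrg1, Adgrg6, Adgra2, Adgra3 and Adgre5, picked by their symbols, with earlier results of these data known, from a table of 17583 genes. All 10 had a row in the table. They are not the whole family, because 14 of 20 further genes of the family on a fixed list also had a row, and these are used below for comparison.

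The RNA came from hearts of 3 EC-RiboTag mice, which carry Cdh5-CreERT2 and the allele Rpl22tm1.1Psam. In these animals tamoxifen activates a Cre recombinase under the promoter of the endothelial cadherin gene, and Cre then gives the ribosomal protein Rpl22 a hemagglutinin tag. Tagged ribosomes were precipitated from heart homogenate, and the RNA attached to them was sequenced, with 1 library for each mouse. The 3 libraries are described by the labels as biological replicates of 1 condition, which the labels place 7 days after a coronary ligation. The study's description of the RiboTag method and of its RiboTag sequencing names no infarction, but a different assay of the study took EC-RiboTag RNA at day 7 after infarction from separate zones, among them the remote zone, abbreviated RZ. The labels do not spell out the letters Rz in the titles, which may stand for that zone, so it is not settled here whether whole hearts or 1 zone of them were used. No input or control library was analysed, and the values are therefore levels in the precipitate and not enrichments over the heart. In such bulk material, fewer cells of a type and less RNA per cell cannot be told apart.

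All values are normalized counts that the authors rounded to whole numbers. They summed to between 7149102 and 7268785 per mouse, and between 6755000 and 7565000 reads were estimated to stand behind them. All 10 endothelial marker genes on a fixed list, Cdh5 and Pecam1 among them, were in the highest 10.0% per base of transcript of a background of 14395 genes, namely those whose mean was 10 or more and whose transcript length was known. Of 8 cardiomyocyte marker genes 5 were there too, and 2 of 4 endocardial ones, whereas none of 6 fibroblast, 8 mural cell, 9 leukocyte, 5 lymphatic or 4 Schwann cell markers with a row was. The precipitate thus held RNA of cardiomyocyte genes beside that of endothelial genes. Whether other cells added to the values of the adhesion receptors was not tested.

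Adhesion receptors join a long extracellular part, built to bind matrix or neighbouring cells, to the membrane-spanning part of a G protein-coupled receptor. Most of them cut themselves during synthesis at a short motif beside the membrane, and the stretch that follows the cut can act as a tethered agonist that switches the receptor on. Several members are known from the vessel wall, among them Adgrf5 (GPR116), Adgrl4 (ELTD1) and Adgra2 (GPR124), and others were first studied in neurons, glia or leukocytes.

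The coding sequence of the cut site is shown because it is the feature that defines most receptors of this family and was not used to choose the genes. The canonical transcript of each gene was translated and searched for cysteine, any residue, cysteine, any residue, histidine, then leucine, phenylalanine or methionine, then threonine or serine. Of the 10 members, 8 had this motif, and so did 8 of the 14 other family genes. No match was found in Adgra2 and Adgra3, which says only that these letters are absent. Each stretch below has 39 bases on the coding strand of GRCm39, lies in a single coding exon and starts at the first cysteine codon. Capitals mark the codons for the histidine, the residue after it and the threonine in front of which the receptor is cut.
Adgrf5: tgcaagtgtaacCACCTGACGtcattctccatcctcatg
Adgrl1: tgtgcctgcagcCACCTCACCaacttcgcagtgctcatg
Adgrl2: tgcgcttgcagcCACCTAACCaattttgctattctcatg
Adgrl3: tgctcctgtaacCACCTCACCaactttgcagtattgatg
Adgrl4: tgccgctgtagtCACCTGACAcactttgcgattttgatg
Adgrg1: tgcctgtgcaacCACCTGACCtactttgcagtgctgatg
Adgrg6: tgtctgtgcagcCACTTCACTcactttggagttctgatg
Adgre5: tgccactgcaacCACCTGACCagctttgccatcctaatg

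These stretches lie at chr17:43761265-43761303 on the plus strand for Adgrf5, chr8:84660623-84660661 on the plus strand for Adgrl1 and chr3:148543218-148543256 on the minus strand for Adgrl2. For Adgrl3 the position is chr5:81842418-81842456 and for Adgrl4 it is chr3:151214960-151214998, both on the plus strand. For Adgrg1 it is chr8:95734258-95734296 on the plus strand, for Adgrg6 chr10:14307350-14307388 on the minus strand and for Adgre5 chr8:84452512-84452550 on the minus strand. Between pairs of these 8 genes, 21 to 31 of the 39 bases were identical. The lowest value was that of Adgrf5 and Adgrg6, and the highest was shared by 5 pairs, including Adgrl1 with Adgrl2 and Adgrg1 with Adgre5. Adgrg6 was the member with a phenylalanine codon in place of the leucine codon. Over whole proteins, Adgrl1 and Adgrl2 were identical at 65.1% of the positions of the shorter one, Adgrl2 and Adgrl3 at 63.1% and Adgra2 and Adgra3 at 44.1%, whereas Adgrl4 reached 35.7% with Adgrl3, its nearest latrophilin. No stretch of read length, 72 bases, from any of the 10 canonical transcripts had an exact copy elsewhere in the genome. An error-free read within 1 exon of these transcripts could therefore not come from 1 exon of another receptor. Reads across exon junctions were not compared with the spliced transcripts of other genes.

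Adgrl4, an orphan receptor of blood vessels that is known from tumour angiogenesis, had the highest level per base of the 10. Its normalized count was 2448 in mouse 1, 2362 in mouse 2 and 2346 in mouse 3 (mean 2385 ± 54.9, SD, n = 3 mice). The coefficient of variation was 2.30%, where counting alone would give about 2.05%. Because the authors removed duplicates of single-end reads, the number of reads that can start at a base is bounded, so both the spread between mice and the folds between genes may be understated for dense transcripts such as this one. Divided by the 4106 bases of its canonical transcript this is 581 ± 13.4 normalized counts per 1000 bases (SD, n = 3), a level above that of 97.78% of the 14395 background genes. Adgrl4 (ENSMUSG00000039167) lies on the plus strand of chromosome 3, from 151143524 to 151250723 of GRCm39.

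Adgrf5, which limits surfactant in the lung and is also a receptor of endothelial cells in many organs, had the highest normalized count. The values were 4012, 3492 and 4033 in mice 1, 2 and 3 (mean 3846 ± 306, SD, n = 3), rank 13 of all genes in the table. Mouse 2 was lower than the other two. The canonical transcript of Adgrf5 is 8564 bases long, so that per 1000 bases the level was 449 ± 35.8 (SD, n = 3), below that of Adgrl4 in every mouse. Adgrf5 (ENSMUSG00000056492) lies on the plus strand of chromosome 17, from 43671342 to 43770448. Joint loss of Adgrf5 and Adgrl4 is known to harm blood vessels in mice more than loss of either gene, and together these 2 genes made up 45.5% ± 2.46 (SD, n = 3) of the summed level per base of the 10 receptors.

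**Figure D1:**
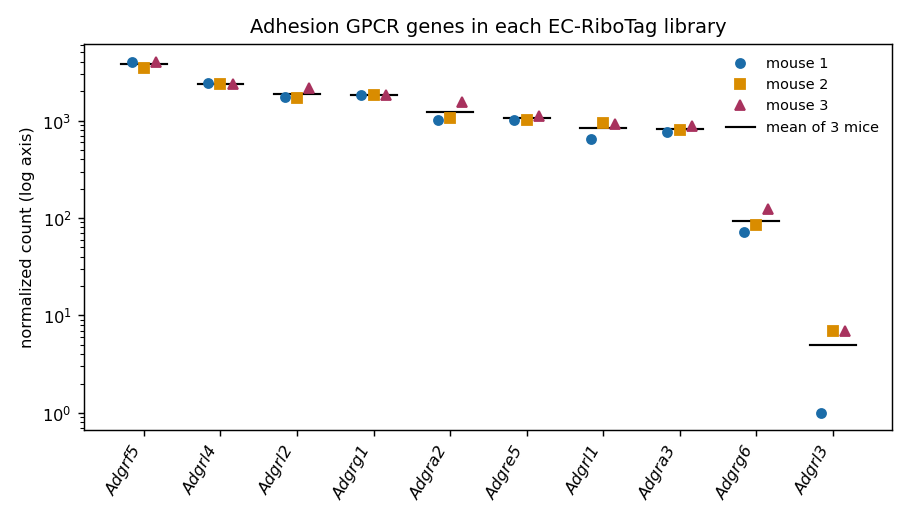
Normalized count (log axis) of each of the 10 receptors in mouse 1, mouse 2 and mouse 3, with 1 point for each mouse. Adgrf5 is highest with 3492 to 4033, 8 receptors have means of 815 or more, and Adgrg6 with 72 to 125 and Adgrl3 with 1 to 7 stand below them.

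Among the latrophilins, which were named after a spider toxin and act at synapses by binding teneurins and FLRT proteins, Adgrl2 was highest. Its normalized counts of 1739, 1720 and 2134 were alike in mice 1 and 2 and higher in mouse 3 (mean 1864 ± 234, SD, n = 3). For Adgrl1 the counts were 650, 936 and 925, with mouse 1 below the other two (mean 837 ± 162, SD, n = 3). Per 1000 bases Adgrl2 reached 194 ± 24.3 and Adgrl1 98.9 ± 19.1 (SD, n = 3). The gene of the third latrophilin, Adgrl3, was nearly empty, with counts of 1, 7 and 7 that rest on about 15 reads in all 3 mice. The ratio of Adgrl2 reads to Adgrl3 reads was 1780 in mouse 1 (95% counting interval 319 to 70300), 232 in mouse 2 (112 to 578) and 317 in mouse 3 (154 to 790). These intervals are exact and cover counting error only. They show the size of the gap in every mouse and how little the 1 read of mouse 1 fixes it. Adgrl4 is grouped with the latrophilins by its name, and per base it exceeded Adgrl2 3.01-fold.

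Adgrg1 (GPR56), a receptor for collagen III and transglutaminase 2 that is known from brain malformations and from platelets, was the steadiest of the 10. Its normalized counts were 1833, 1809 and 1833 (mean 1825 ± 13.9, SD, n = 3), a coefficient of variation of 0.759% against about 2.34% from counting. With 3 mice, a spread under the counting error does not show that the error was smaller. Per 1000 bases its level was 357 ± 2.71 (SD, n = 3), the third highest and just under the 365.8 that marked the highest 10.0% of genes. Adgrg6 (GPR126), which Schwann cells need to form myelin, has also been linked to the trabeculae of the embryonic heart. It was low, with 72, 85 and 125 normalized counts and 19.2 ± 5.64 per 1000 bases (SD, n = 3). Mouse 3 was the highest. The 4 Schwann cell markers were near the floor as well and summed to 45, 50 and 50 normalized counts.

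Adgra2, the partner of Reck in Wnt7 signalling in brain vessels, had normalized counts of 1018, 1055 and 1565 (mean 1213 ± 306, SD, n = 3). Mouse 3 stood above the mean of the others by 0.59 on the log2 scale. Its relative Adgra3 (GPR125) had 766, 796 and 883 (mean 815 ± 60.8, SD, n = 3), also with mouse 3 highest but with less spread. Per 1000 bases the levels were 207 ± 52.1 for Adgra2 and 181 ± 13.5 for Adgra3 (SD, n = 3). Adgre5 (CD97), best known from leukocytes, binds CD55 and Thy1. The counts of Adgre5 were 1019, 1015 and 1118 (mean 1051 ± 58.3, SD, n = 3), or 179 ± 9.93 per 1000 bases. Adgre1, the macrophage antigen F4/80 and a relative of Adgre5, had counts of 20, 41 and 48, and per base Adgre5 exceeded it 17.6-fold.

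Read by level per base of canonical transcript, the 10 genes fell in the order Adgrl4, Adgrf5, Adgrg1, Adgra2, Adgrl2, Adgra3, Adgre5, Adgrl1, Adgrg6 and Adgrl3. Of the 9 steps between neighbours, 7 held in every mouse and were larger than their own SD. The 2 exceptions were Adgra2 over Adgrl2, with a log2 difference of 0.07 ± 0.17 (SD, n = 3), and Adgra3 over Adgre5, with 0.01 ± 0.04 (SD, n = 3). Each of these held in 2 of 3 mice, so the middle of the order is not resolved. The step from Adgrl2 to Adgra3 was small as well, at 0.10 ± 0.08 (SD, n = 3). The larger steps were those from Adgrg1 to Adgra2 (1.76-fold), from Adgre5 to Adgrl1 (1.83-fold) and from Adgrl1 to Adgrg6 (5.22-fold), and the last step leads to the near-empty Adgrl3. The order depends on the length used. By the joined length of all annotated exons, 6 of 9 steps met both conditions, and Adgrl2 moved to place 7. Adgrg1 then exceeded Adgra2 only 1.22-fold, with a log2 difference of 0.29 ± 0.34 (SD, n = 3), and this held in 2 of 3 mice.

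Against the rest of the table, 2 of the 10 receptors, Adgrl4 and Adgrf5, were in the highest 10.0% of genes per base, which by construction holds 1440 of 14395 genes. The share is 2 of 10 where the background is 10.0%, and with 10 genes nothing is read from that difference. The median level of the 10 was 187.3 normalized counts per 1000 bases against 106.5 for the 14395 background genes, and 7 of the 10 lay above the latter. The background holds only genes whose mean was 10 or more, a cut that Adgrl3 did not meet. Without division by length 5 of the receptors were in the highest 10.0%. By the joined length of all annotated exons Adgrf5, Adgrl4 and Adgrg1 were, and Adgrf5 then led.

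**Figure D2:**
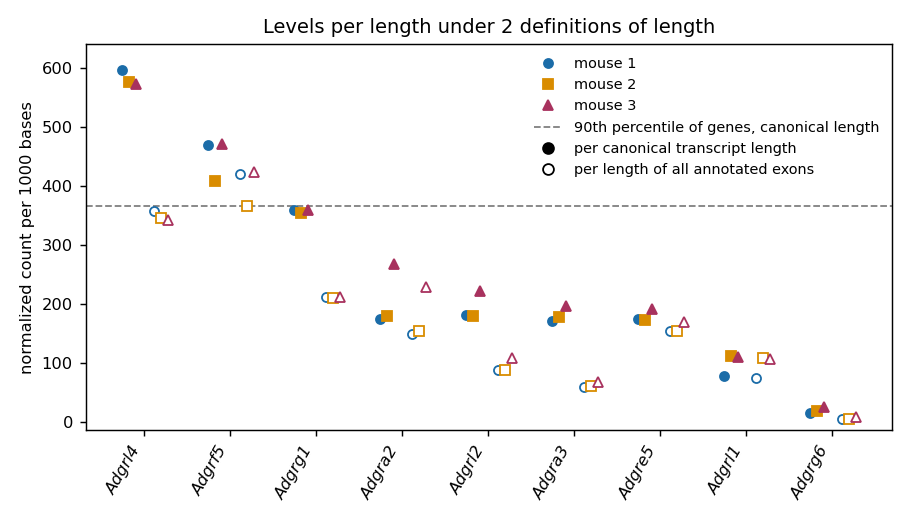
Normalized counts per 1000 bases for 9 receptors (Adgrl3, near 0, is left out), divided by the length of the canonical transcript (filled) or of all annotated exons joined (open), each point being 1 mouse, with a dashed line at the 90th percentile of genes by canonical length. By canonical length Adgrl4 (mean 581) and Adgrf5 (mean 449) lie above the line in every mouse, and by joined exons the means of Adgrl4 and Adgrl2 are 348 and 94.2.

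Of the 8 ratios that were compared within each mouse, all 8 had the same sign in the 3 mice by canonical length. With 3 mice the two-sided p of an exact sign-flip test is 0.25 at the least, and every ratio had that p and an adjusted p of 0.25 over the 8, so no ratio can pass a threshold of 0.05. Adgrf5 was below Adgrl4 by a log2 ratio of -0.37 ± 0.11 (SD, n = 3), or 1.30-fold. This order depends on the length used, since the ratio was 0.21 by joined exons and 0.69 without length. Adgrl2 exceeded Adgrl1 1.98-fold (log2 ratio 0.98 ± 0.27, SD, n = 3), but by joined exons the ratio was -0.012 and its sign differed between mice. The joined exons of Adgrl2 gave it 94.2 normalized counts per 1000 bases, against 194 by the canonical transcript. Adgrl2 exceeded Adgrl3 by a log2 ratio of 8.90 ± 1.55 (SD, n = 3), and by 8.02 without mouse 1, in which Adgrl3 had a count of 1.

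Within the other subfamilies, Adgrg1 exceeded Adgrg6 19.1-fold, with a log2 ratio of 4.26 ± 0.41 (SD, n = 3). Adgra2 and Adgra3 were nearly level, at a log2 ratio of 0.17 ± 0.24 (SD, n = 3). This ratio was 0.03 in mice 1 and 2 and 0.45 in mouse 3, and it was 1.47 by joined exons. The difference of the pair is therefore set by 1 mouse and by the transcript length. Pecam1, the endothelial surface protein CD31, served as a yardstick for Adgrf5 and was 1.67-fold higher per base (log2 ratio of Adgrf5 to Pecam1 -0.74 ± 0.16, SD, n = 3). By joined exons the sign turned, to 0.55. Pecam1 had 747 normalized counts per 1000 bases of canonical transcript, so the removal of duplicates may understate the 1.67-fold difference. Other G protein-coupled receptors of endothelium gave a second yardstick. Of 8 such genes on a fixed list, S1pr1, the receptor for sphingosine 1-phosphate, was highest with 633 ± 7.47 per 1000 bases (SD, n = 3), followed by Aplnr, the apelin receptor, with 528 ± 59.7 and by the proton sensor Gpr4 with 430 ± 19.6. These 3 were in the highest 10.0% of genes, and the median of the 8 was 316.8. By its mean per base of canonical transcript Adgrl4 lay between S1pr1 and Aplnr, and Adgrf5 between Aplnr and Gpr4. By joined exons the order of these 5 genes was another. The means were then 528 for Aplnr, 466 for S1pr1, 403 for Adgrf5, 372 for Gpr4 and 348 for Adgrl4.

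The genes whose level per base was most like that of Adgrl4 in all 3 mice, among 9344 genes whose mean was 200 or more, were Slc43a3, Fkbp9 and Tmem123. Their largest log2 difference from Adgrl4 in any mouse was 0.0294, 0.034 and 0.0369. This likeness is one of level in 3 libraries of 1 condition.

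In the rest of the family, 8 of the 14 genes with a row had a mean of at least 10, and none was in the highest 10.0% per base. Adgrb3, Adgrf1, Adgrf2, Adgrf3, Adgrg4 and Adgrg7 had no row in the table used and were not analysed here. The median of the 14 was 3.89 normalized counts per 1000 bases, against 187.3 for the 10 described above, a difference that the choice of the 10 with results known may have fixed. Highest was Adgrg3 (GPR97), a receptor known from neutrophils, with counts of 241, 261 and 342. Its level of 115 ± 21.9 per 1000 bases (SD, n = 3) by canonical length overlaps the 98.9 ± 19.1 of Adgrl1. By joined exons the means were 40.7 for Adgrg3 and 95.8 for Adgrl1. Celsr2 with 167, 274 and 262 and Celsr1 with 44, 123 and 154, 2 cadherin-type receptors of planar cell polarity, followed by count. Adgrd1 had 78, 60 and 52, and Adgrg2, Adgrb2 and Adgrf4 had means between 13.7 and 23.3. The remaining 6 with a row, Adgra1, Adgrb1, Celsr3, Adgre4, Adgrg5 and Adgrv1, had means under 5, the mean of Adgrl3.

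The other receptors lie on 4 chromosomes of GRCm39. Adgrl2 spans chr3:148521219-148696191 (minus strand), Adgrl3 chr5:81167985-81972980 (plus), Adgra3 chr5:50117298-50216348 (minus) and Adgrg6 chr10:14278327-14421403 (minus). On chromosome 8 are Adgra2 at chr8:27575611-27613464 (plus), Adgre5 at chr8:84449880-84467955 (minus), Adgrl1 at chr8:84626734-84668583 (plus) and Adgrg1 at chr8:95701379-95740845 (plus). Adgre5 shares 31 exonic bases with the microRNA gene Mir1668 on its own strand, and no other of the 10 shares exonic bases with another gene on its strand.

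Adgrg1 sits between relatives on chromosome 8. Adgrg5 ends 31470 bases before it and Adgrg3 starts 3474 bases after it, all 3 on the same strand and with no other listed gene starting between them. Their levels were far apart in spite of this closeness. Adgrg5 had normalized counts of 4, 3 and 3, against 1809 to 1833 for Adgrg1 and 241 to 342 for Adgrg3. Adgre5 and Adgrl1 are also neighbours on this chromosome, on opposite strands and 158778 bases apart.

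**Figure D3:**
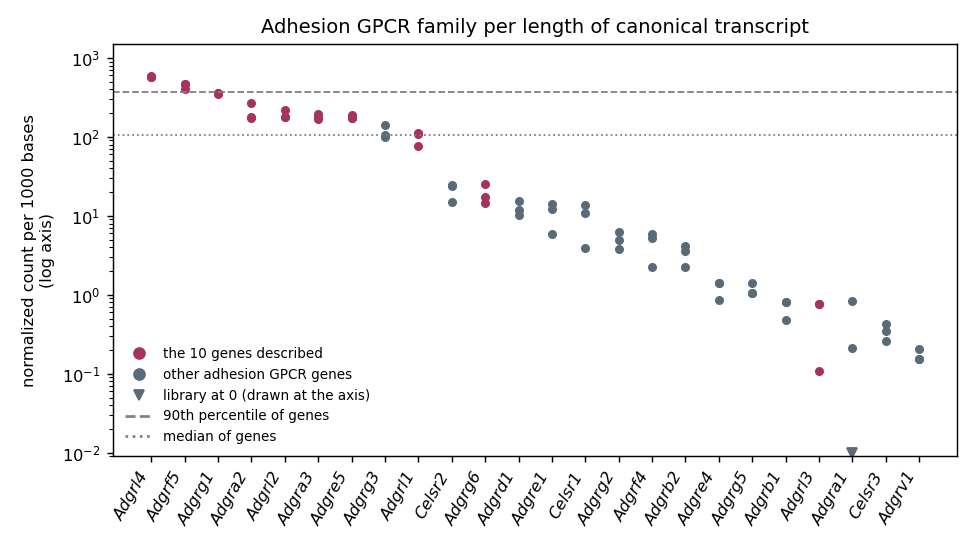
Normalized counts per 1000 bases of canonical transcript (log axis) for the 10 receptors and the 14 other family genes with a row, 1 point for each mouse, with lines at the 90th percentile and the median of genes and a triangle for a library at 0. Apart from Adgrg6 and Adgrl3 the 10 receptors have means of 98.9 or more, and of the 14 other genes Adgrg3 alone, with a mean of 115, reaches that range.

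Between mice, the receptors differed widely in their spread. For the 8 whose mean was 200 or more the median coefficient of variation was 7.71%, and over the 9358 genes of the table with such a mean it was 7.37%. The 8 values ran from 0.759% for Adgrg1 to 25.2% for Adgra2. A coefficient over 20% was found for 1 of the 8, Adgra2, where 8.00% of all genes had one. One of 8 is near that background. Adgrl1 was just under the limit with 19.4%. Adgrg6 (29.4%, about 10.3% from counting) and Adgrl3 (69.3%, about 44.7%) had means below 200 and were not counted. The call on Adgra2 rests on mouse 3, without which its coefficient was 2.52%, and that of Adgrl1 was then 25.5%, so that the count was again 1, against 8.71% of all genes. Without mouse 2 both exceeded the limit, with 29.9% for Adgra2 and 24.7% for Adgrl1, so the count was 2, against 9.86% of all genes. Without mouse 1 it was 1, Adgra2, against 4.84%.

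Of the 8 receptors, 5 were highest in mouse 3, a place held by 29.7% of the 9358 genes just named. They were Adgra2, Adgrl2, Adgra3, Adgre5 and Adgrf5, and the last of these was nearly as high in mouse 1. Several marker lists also differed between the mice. All 4 endocardial markers were highest in mouse 3, with sums of 3777, 2933 and 5089, and Npr3 among them had 1589, 914 and 2228. The 8 mural markers summed to 1610, 2002 and 2274, and 5 of them were highest in mouse 3, among them the smooth muscle genes Acta2, Myh11 and Tagln. Pericyte genes were split. Pdgfrb (212, 254 and 280) and Abcc9 (383, 301 and 396) were highest in mouse 3. Rgs5 (542, 615 and 505) and Cspg4 (134, 295 and 186) were highest in mouse 2 and Kcnj8 (138, 85 and 119) in mouse 1. The 6 fibroblast markers summed to 2315, 2431 and 2860. Of these, 4 were highest in mouse 3, including Dcn (813, 579 and 1007) and Lum (458, 309 and 618), whereas Col1a1 (378, 642 and 401) and Col1a2 (454, 669 and 531) were highest in mouse 2. The 8 cardiomyocyte markers were split as well. Of these, 3 were highest in mouse 3, namely Tnnt2 and those with the longest transcripts, Ttn (7379, 7743 and 10190) and Ryr2 (3280, 3667 and 4486). Another 4, Tnni3 (644, 581 and 535), Mb (761, 731 and 649), Myl2 (729, 701 and 605) and Actc1, were highest in mouse 1 and lowest in mouse 3. None of these markers was at 0. Neither the part of these cells nor that of transcript length in the high value of Adgra2 in mouse 3 was tested.

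Adgrl1 was lowest in mouse 1, by 0.52 on the log2 scale below the mean of the other mice. All 5 lymphatic markers were lowest there as well (sums 2834, 3523 and 3989), and so were 7 of 9 leukocyte markers, with C1qa equal in mice 1 and 3 (sums 672, 963 and 927). The B cell gene Cd79a was at 0 in mouse 3. Mouse 1 was also lowest for 5 of 8 mural, 4 of 6 fibroblast and 4 of 8 cardiomyocyte markers. It was lowest for 1 of 4 endocardial and 1 of 10 endothelial markers, and for 32.2% of the 9358 genes with a mean of 200 or more. The part of any of these cells in the value of Adgrl1 was not tested. The 10 endothelial markers summed to 24539, 23369 and 23432 and did not follow either pattern.

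**Figure D4:**
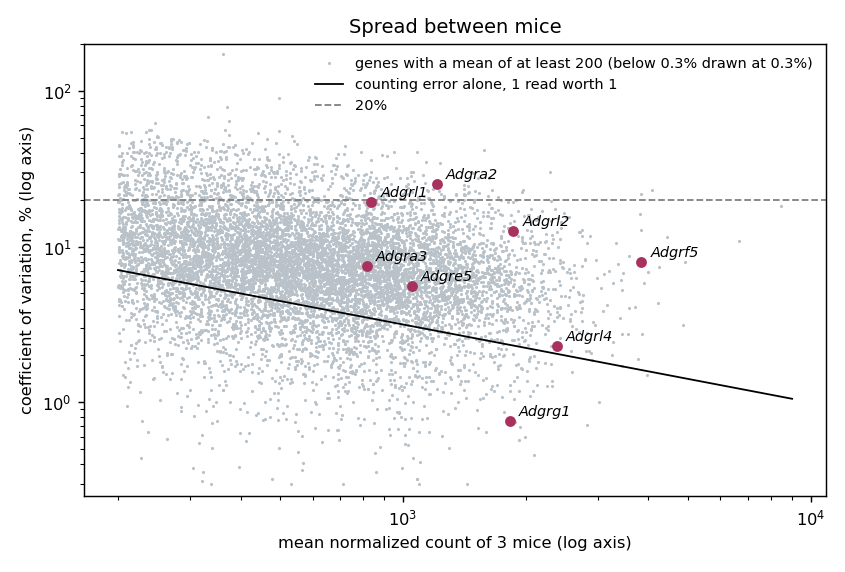
Coefficient of variation over 3 mice (percent, log axis) against mean normalized count (log axis), with a grey point for every gene whose mean was 200 or more and named points for the 8 receptors among them, a solid line for counting error and a dashed line at 20%. Adgra2 is the receptor above the dashed line, Adgrl1 lies just under it, and Adgrg1 is lowest at 0.759%.

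The binding partners known for these receptors were on a fixed list of 21 genes, of which 18 had a row and 15 a mean of at least 10. In this RNA the partners of the latrophilins were mostly low. Flrt2, a membrane protein with leucine-rich repeats, was the exception with counts of 632, 694 and 810 and 90.1 normalized counts per 1000 bases. Flrt3 had 19, 34 and 46, Flrt1 3, 1 and 11, and of the teneurins Tenm3 had 12, 39 and 29 and Tenm4 5, 6 and 14. Tenm1 and Tenm2 had no row in the table used. Per base Flrt2 was thus near Adgrl1 (98.9) and below Adgrl2 (194), and the other partners with a row were far below both.

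For Adgrg1, Tgm2, which codes for transglutaminase 2, was high and steady with 2149, 2080 and 2128 (589 ± 9.83 per 1000 bases, SD, n = 3). Col3a1, the collagen III gene and mostly a product of fibroblasts, had 388, 798 and 655, with mouse 1 lowest and a coefficient of variation of 33.9%. The partners of Adgrg6 stood in contrast to their low receptor. Col4a1 and Col4a2, which code for the collagen IV of basement membranes, reached 560 and 443 per 1000 bases, and the prion protein gene Prnp 474. Lama2, a chain of the muscle laminin, was lower with 33.1. For Adgre5, Cd55 had 604, 658 and 729 (203 per 1000 bases) and Thy1 484, 633 and 670 (316 per 1000 bases), both lowest in mouse 1.

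Adgra2 works in the brain with Reck and with the Wnt receptors Fzd4, Lrp5 and Lrp6. Reck, its membrane-anchored partner, had 395, 353 and 596, with a coefficient of variation of 29.0%. It was highest in mouse 3, which was not particular to Reck. Of the 5 partners of Adgra2 with a row 4 were highest there, and of all 18 partners 12. Among genes with a mean of 200 or more, that share was 29.7%. Fzd4 (409 per 1000 bases) and Lrp5 (432) were in the highest 10.0% of genes, and Lrp6 reached 144. Their ligand Wnt7a was near the floor with 2, 1 and 5, and Wnt7b had no row in the table used. In all, 6 of the 18 partner genes with a row were in the highest 10.0% per base, and their median was 127.1 normalized counts per 1000 bases.

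**Figure D5:**
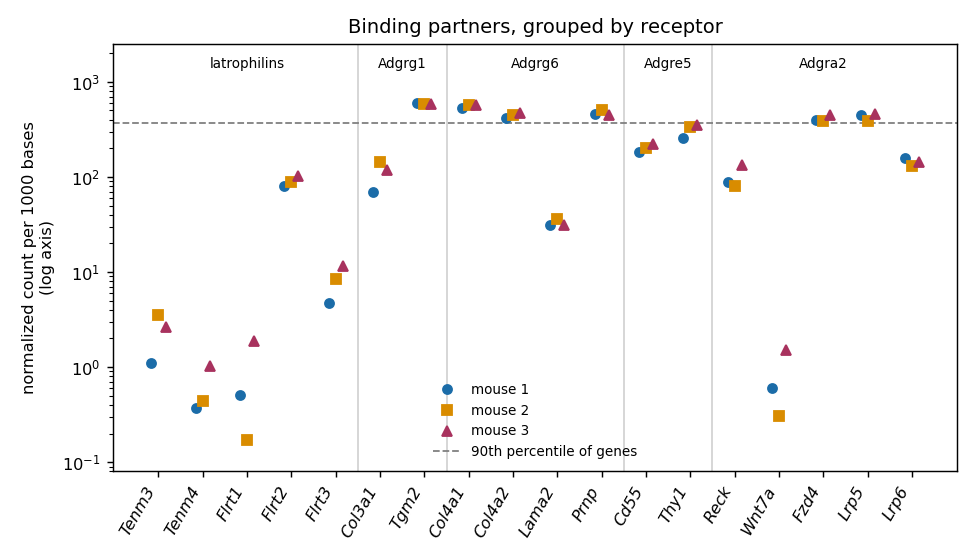
Normalized counts per 1000 bases of canonical transcript (log axis) for the 18 partner genes with a row, grouped by receptor, with 1 point for each mouse and a dashed line at the 90th percentile of genes. The 6 partners Tgm2, Col4a1, Col4a2, Prnp, Fzd4 and Lrp5 have means above the line, and the teneurins, Flrt1 and Wnt7a are below 4 in every mouse.

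Inside the cell, adhesion receptors signal through G proteins and arrestins. All 16 genes of a fixed list of signalling genes had a row, and 15 had a mean of at least 10. Those for the inhibitory subunit Gnai2 (834 per 1000 bases), the stimulatory subunit Gnas (510), Gna11 (448), Gna12 (446), Gnai3 (391) and Arhgef1 (366) were in the highest 10.0%, and the median of the 16 was 234.4. Gna12 and Gna13, the subunits to which Adgrg1 is known to couple, had means of 1534 ± 38.0 and 1356 ± 27.4 normalized counts (SD, n = 3). Gna14 was near the floor with 4, 3 and 1. None of these levels says which of the partners a receptor used.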

How the data were processed

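Endothelial ribosome-bound RNA from 3 hearts was sequenced by the authors as single-end reads of 72 bases. Per the labels and the study's methods, the authors trimmed reads (Trimmomatic 0.39), aligned them to mm39 with Ensembl release 109 (STAR 2.7.11a), removed duplicates (Picard 3.1.1) and multi-mapping, ribosomal and mitochondrial reads, counted reads in exons by strand (featureCounts 2.0.4) and normalized them (DESeq2 1.36.0). Removing duplicates of single-end reads bounds how many reads can start at a base, which lowers the values of dense transcripts most. The deposited values are a score, namely counts divided by a size factor and rounded by the authors, so no count model was used. The reads behind them were estimated from gaps and doublings among the rounded values from 5 to 120, by which 1 read was worth 0.977, 1.06 and 0.961 in mice 1 to 3.

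Lengths, exons and coding sequences came from the GENCODE annotation of GRCm39, which is newer than that of the authors, and matched 17475 of 17583 genes. Ratios within a mouse were tested by an exact two-sided sign-flip permutation test. By canonical length the p-values of the 8 pairs were all 0.25. Benjamini-Hochberg adjustment leaves such tied values as they are, so the adjusted p is the same number. The named genes are the 10 receptors, the lists of other family genes, partners, signalling genes, other receptors and markers, and the 3 genes nearest to the receptor with the highest level per base. The members and lists were chosen with earlier results of these data known. Alternatives were another length or none, other scalings and cutoffs, and leaving out each mouse. Scripts were tested on simulated data and used Python 3.11.15, numpy 2.4.6, pandas 2.3.3, scipy 1.17.1, matplotlib 3.10.9, Biopython 1.88 and BLAST 2.17.0.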

Additional observations from a re-analysis of the deposited data

How the results depend on the processing

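Of 58 alternatives to the 8 ratios and 3 counts, 50 kept the direction of the ratio or stayed close to the reported count. The length used was the choice that mattered most. By joined exons the log2 ratio of Adgrf5 to Adgrl4 turned to 0.21, that of Adgrl2 to Adgrl1 to -0.012 and that of Adgrf5 to Pecam1 to 0.55. Without division by length the first was 0.69 and the third 0.48, and 5 receptors instead of 2 were in the highest 10.0% of genes. A mean of at least 50 left 4 of the 8 other family genes. Leaving out each mouse gave 1 to 2 receptors with a coefficient of variation over 20%, and it turned no ratio. Scaling by trimmed means or to equal totals, added after the data had been seen for the levels of single genes, moved none of the 10 levels by more than its SD. Depth limits Adgrl3, with about 15 reads, and to a lesser degree Adgrg6, with 284. No comparison of conditions, paired or not, was possible because all libraries belong to 1 condition.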
